A study of Homo sapiens with 6 samples.

Results

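IL24, a secreted cytokine of the IL-10 family, and the 3 receptor subunits through which it signals, IL20RB, IL20RA and IL22RA1, were followed on 6 one-colour microarrays. These 4 genes were taken from the 18365 genes with a probe that carries 1 gene symbol, and each has 1 probe. IL24 was selected on its measured difference between the SFRP clones and mock, so that difference is given as a description without a test, and the receptor subunits were added because they bind it. Of the 4 genes, 3 passed the filter on dim probes, which kept a gene when its brightest array reached an intensity of 641.8, the median of the whole table. IL20RA did not pass, and 11954 genes of all kinds did.

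The populations were 5 stable HM20 clones, SFRP1, SFRP2, SFRP3, SFRP4 and SFRP5, each named for the secreted Frizzled-related protein it was made to express, and HM20 Mock, against which they were set. Per the labels all 6 derive from A549, a long-established line of human lung adenocarcinoma, and the labels do not say in what way HM20 differs from it. Wnt3a medium was given for 24 hours to the clones and to mock alike, with no untreated array. The Wnt3a effect itself was thus not measured, and a clone's altered response to it cannot be told apart from other differences. There was 1 array for each population, so differences between arrays have no replicate check, a clone's differences from mock may belong to that clone, and all 5 comparisons share the 1 mock array. With so few arrays the precision of every value is limited.

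IL24 was first described as a gene of melanoma cell differentiation and is also made by activated blood cells and keratinocytes. The cytokine binds receptors made of 2 chains, either IL20RA with IL20RB or IL22RA1 with IL20RB. IL20RB is thus part of both receptors, and the related cytokine IL20 uses both, whereas IL19 uses only the pair of IL20RA and IL20RB. Receptor binding activates JAK kinases and STAT3, SOCS proteins damp the signal, and forced expression of IL24 in tumour cells is known for endoplasmic reticulum stress and growth arrest genes.

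Across the arrays the median intensity lay between 599.6 and 689.0, and the 10th percentile, used below as the floor of each array, lay between 53.2 and 91.0. The probe of each clone's own SFRP gene gave no clear mark of the label. On the log2(intensity + 1) scale the difference was 0.58 in the SFRP1 clone, -0.31 in SFRP2, 0.44 and -0.12 on the 2 FRZB probes in SFRP3, -0.34 in SFRP4 and -0.65 in SFRP5. The SFRP1 probe was bright in both, at 88063 in the SFRP1 clone and 58836 in mock. The SFRP2, SFRP4 and SFRP5 probes read below the floor in their own clones. Where these probes lie in the genes was not known, and one that misses the introduced sequence checks nothing, so every clone is called by its label. Among the 12 markers listed for lung epithelium and A549, 11 were on the arrays and 7 passed the filter. The surfactant genes SFTPB and SFTPC stayed under the table median on all 6 arrays. The 11 markers summed to 6434 to 13559 in the clones and 14680 in mock, lower in every clone. Singly they were mixed. AKR1B10 and AKR1C1 were lower in all 5 clones, the dim ALDH1A1 was higher in all 5, and the others were higher in 1 to 4. The part of these markers in the results below was not tested.

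The sequence just upstream of IL24 is shown because IL24 had the largest difference among the 4 genes, and that of IL22RA1 because it holds the only match to the searched factor motifs among them. Both are RefSeq sequences of GRCh38.p14, the 250 bases before the annotated start. The IL24 stretch lies at chr1:206897193-206897442 on the plus strand, and its capitals mark a run of alternating A and T, 30 to 23 bases before the start. The IL22RA1 stretch lies at chr1:24143141-24143390 on the minus strand, and its capitals mark a match to the AP-1 motif TGANTCA, 223 to 217 bases before the start.
IL24: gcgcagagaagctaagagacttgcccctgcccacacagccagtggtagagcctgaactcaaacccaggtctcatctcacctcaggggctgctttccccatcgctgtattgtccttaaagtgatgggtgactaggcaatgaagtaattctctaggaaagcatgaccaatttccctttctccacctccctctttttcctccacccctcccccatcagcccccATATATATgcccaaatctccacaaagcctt
IL22RA1: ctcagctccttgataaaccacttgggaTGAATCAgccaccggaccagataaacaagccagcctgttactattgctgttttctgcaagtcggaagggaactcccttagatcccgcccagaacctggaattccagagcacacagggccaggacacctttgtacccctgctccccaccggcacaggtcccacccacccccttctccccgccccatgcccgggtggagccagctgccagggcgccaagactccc

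Both strands were searched for TGANTCA, for the STAT motif TTCNNNGAA and for the TCF/LEF motifs CTTTGAT and CTTTGAA, and none of these motifs overlapped another in the windows shown. TGANTCA was held by 6.57% of the 35116 upstream windows of the same length, TTCNNNGAA by 6.57%, CTTTGAT by 2.26% and CTTTGAA by 3.80%. None of them occurred in the IL24, IL20RB or IL20RA windows, which says only that these letters are absent there. The run ATATATAT was added to the search after the IL24 sequence had been read and was held by 0.570% of the windows.

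IL24 had the higher intensity in every SFRP clone. It read 1301 in the SFRP1 clone, 11189 in SFRP2, 8748 in SFRP3, 400.4 in SFRP4 and 1646 in SFRP5, against 75.2 in mock. All 5 clones thus lay above mock, as they did by some amount for 14.5% of the kept genes. They covered a 27.9-fold range among themselves. In mock the probe was near the bottom of the array, at 1.08 times the 10th percentile, and 11.0% of all probes read lower. In the clones it stood higher within its array: 89.3% of probes read lower in SFRP2, 87.0% in SFRP3, 64.5% in SFRP5, 61.2% in SFRP1 and 41.5% in SFRP4. In populations of cells, fewer IL24-expressing cells and less IL24 RNA per cell cannot be told apart.

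**Figure D1:**
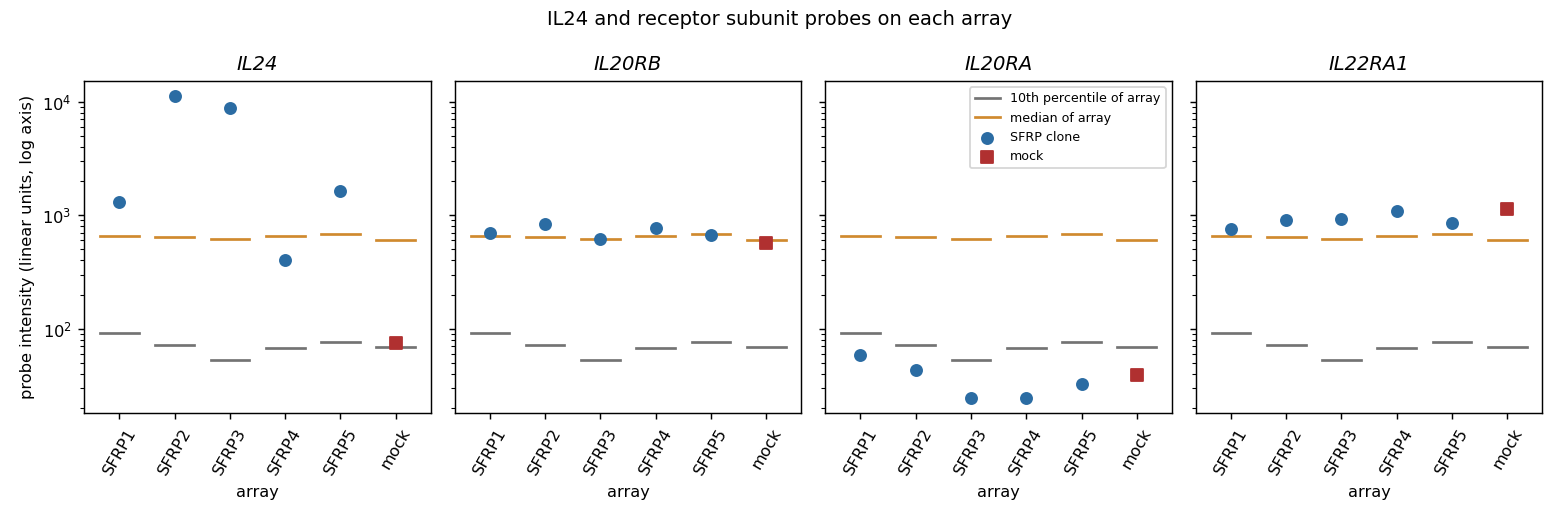
Probe intensity of IL24, IL20RB, IL20RA and IL22RA1 on each array (linear units, log axis), with SFRP clones as circles, mock as a square, and the 10th percentile and median of each array as short lines. IL24 spans 400.4 to 11189 in the clones and sits by the floor at 75.2 in mock, IL20RB and IL22RA1 sit near the median on every array, and IL20RA is below the 10th percentile on all 6.

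Relative to mock the IL24 intensity was 17.3-fold in the SFRP1 clone, 149-fold in SFRP2, 116-fold in SFRP3, 5.33-fold in SFRP4 and 21.9-fold in SFRP5. On the log2(intensity + 1) scale these are differences of 4.10, 7.20, 6.84, 2.40 and 4.43, with a mean of 4.99 ± 2.01 (SD, n = 5 clones). Each fold rests on the same mock reading close to the floor. The mock reading was above the 10th percentile, so raising low values to that percentile left these differences as they were. The mean without 1 clone lay between 4.44 and 5.64.

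A difference of at least 1 log2 unit upward was found for IL24 in all 5 clones, as for 42 of the 11954 kept genes (0.351%), while 45 were that far lower in all 5. The shared counts were 27 higher and 51 lower with median centring, and 28 higher and 47 lower after quantile normalization, and IL24 passed 1 log2 unit in all 5 clones under both. In single clones the share of kept genes at least 1 log2 unit below mock was 4.33% in SFRP1, 3.89% in SFRP2, 3.15% in SFRP3, 7.51% in SFRP4 and 6.53% in SFRP5, and none of the 4 genes was among them. In either direction it was 8.74% in SFRP1, 6.69% in SFRP2, 6.88% in SFRP3, 13.5% in SFRP4 and 12.5% in SFRP5. For higher readings, where IL24 was counted in each clone, it was 4.41% in SFRP1, 2.80% in SFRP2, 3.73% in SFRP3, 5.97% in SFRP4 and 5.98% in SFRP5. With median centring of the arrays, 398 genes were higher and 699 lower in SFRP1, in place of 527 and 518. The same change of scaling gave 253 and 587 in SFRP2 in place of 335 and 465, 379 and 429 in SFRP3 in place of 446 and 377, 536 and 1115 in SFRP4 in place of 714 and 898, and 409 and 1243 in SFRP5 in place of 715 and 780. In SFRP1 and SFRP3 the balance thus turned towards lower genes. By size of its difference IL24 ranked 7th from the top in SFRP1, 4th in SFRP2, 4th in SFRP3, 73rd in SFRP4 and 6th in SFRP5. Among the 42 shared genes it was 3rd by the mean over the clones and 4th by the smallest of the 5 differences. Above it by the mean stood MIS18A (7.84) and TSEN54 (7.17), which read 26.3 and 31.0 in mock, below the floor of that array. The next gene by the mean was CADPS2, at 3.46. IL24 thus had the largest mean difference of the 42 only with MIS18A and TSEN54 set aside.

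**Figure D2:**
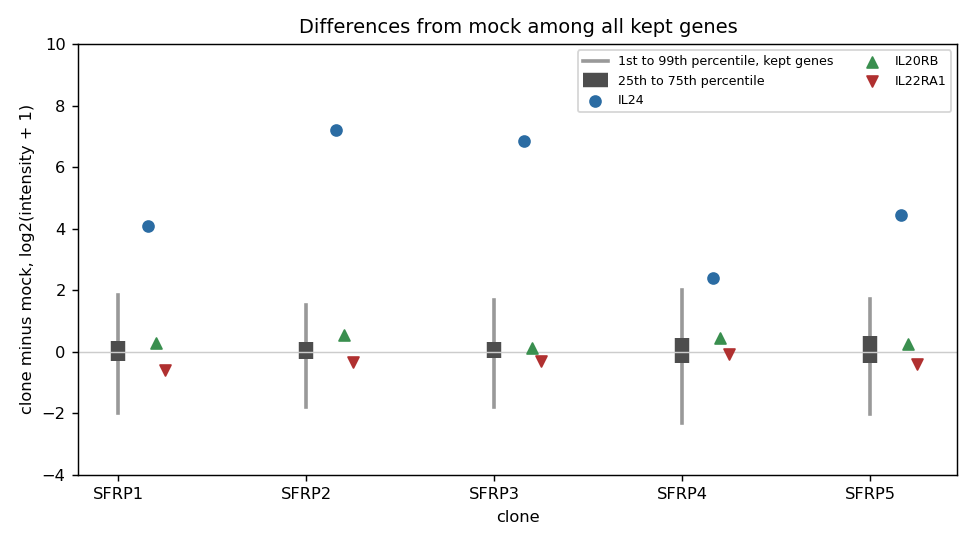
Difference of each SFRP clone from mock, in log2(intensity + 1), for IL24 (circles), IL20RB (upward triangles) and IL22RA1 (downward triangles), beside the 1st to 99th (thin line) and 25th to 75th percentile (thick bar) of the 11954 kept genes. IL24 lies above the 99th percentile in every clone and is lowest in SFRP4 (2.40), while both receptor subunits lie within the thin line.

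From high to low the order of IL24 was SFRP2, SFRP3, SFRP5, SFRP1, SFRP4 and mock, and it was the same under quantile normalization, median centring, a pseudocount of 16 and values raised to the floor. With 1 array per clone the spread within a population is unknown, so no step in this order could be tested. SFRP2 exceeded SFRP3 by 0.36 log2 units, and 40.8% of kept genes were at least as far apart between these arrays. SFRP1 differed from SFRP5 by -0.34, a distance reached by 61.9% of kept genes. These neighbours in the order were thus no farther apart than many other genes. The other steps were wider, with SFRP3 above SFRP5 by 2.41 and SFRP1 above SFRP4 by 1.70, but IL24 was chosen for large differences in the clones and they are given as values only.

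IL20RB, the chain common to both receptors, had nearly level signal. Its intensity was 690.2 in the SFRP1 clone, 829 in SFRP2, 613 in SFRP3, 775 in SFRP4 and 671 in SFRP5, against 564 in mock. Every clone lay above mock, by 0.12 in SFRP3 up to 0.56 in SFRP2, with a mean of 0.34 ± 0.17 (SD, n = 5 clones). None reached 1 log2 unit, and 14.5% of kept genes were higher than mock in all 5 clones by some amount. With median centring the smallest difference, then in SFRP5, was 0.05 and the mean 0.21, and the sign held in all 5 clones.

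IL22RA1, the epithelial chain that pairs with IL20RB to bind IL20 and IL24 and with IL10RB to bind IL22, was lower than mock in every clone. It read 762 in SFRP1, 905 in SFRP2, 916 in SFRP3, 1090.4 in SFRP4 and 858 in SFRP5, against 1139.9 in mock. The differences ran between -0.58 in SFRP1 and -0.06 in SFRP4, with a mean of -0.34 ± 0.19 (SD, n = 5 clones). None reached 1 log2 unit, and 8.51% of kept genes were lower than mock in all 5 clones by some amount. Both the quantile-normalized mean (-0.42) and the median-centred mean (-0.46) kept this direction. The SFRP4 reading of IL22RA1 was the one nearest to mock, and SFRP4 was also the clone with the least IL24.

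IL20RA, the chain that pairs with IL20RB in the other receptor, was read at 58.7 in SFRP1, 42.9 in SFRP2, 24.8 in SFRP3, 24.6 in SFRP4 and 32.6 in SFRP5, against 39.5 in mock. All 6 readings were below the 10th percentile of their own array, between 0.367 and 0.645 times that value. Readings so low have no order, and the sign of the mean difference shows it: it was -0.18 as deposited, 0.24 after quantile normalization and 0.03 with values raised to the floor. At this signal no IL20RA difference between a clone and mock was detectable, and a dim probe does not show that the gene is silent. The 2 chains of the IL22RA1 and IL20RB receptor therefore both had signal near or above the array median, and IL20RA had none above the floor.

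The other ligands of the family were next set beside IL24. The cytokine genes IL19 and IL20 lie next to IL24 on chromosome 1, and their products share its receptors, IL20 both of them and IL19 the one with IL20RA. IL19 read 99.9 in SFRP1, 88.3 in SFRP2, 79.8 in SFRP3, 72.4 in SFRP4 and 119 in SFRP5, against 76.1 in mock. The largest difference of IL19 from mock was 0.64, in SFRP5, and its probe stayed dim on every array. IL20 has 2 probes, of which one was below the floor on all 6 arrays. The other read 567 in SFRP1, 563 in SFRP2, 543 in SFRP3, 936 in SFRP4 and 764 in SFRP5, against 475 in mock, differences of 0.19 to 0.98. The highest IL20 reading was thus in SFRP4, the clone lowest in IL24.

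IL10, IL22 and IL26, the remaining interleukins of the family, read at most 184.5 on any array and did not pass the filter. The interferon lambda genes, whose products use another receptor of the same class, had their own pattern. IFNL2 read 119 in SFRP1, 1097 in SFRP2, 59.6 in SFRP3, 118 in SFRP4 and 246 in SFRP5, against 797 in mock. It was above mock in SFRP2 alone and at least 1 log2 unit below mock in the other 4 clones, SFRP3 included, where IL24 was high. IFNL1 was dimmer, at 379 in SFRP2, at most 142 in the other clones and 243 in mock, and 3 of its readings were below the floor. Of 7 listed ligands on the arrays 2 passed the filter, and neither was 1 log2 unit from mock in the same direction in all 5 clones.

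The other chains of the class II cytokine receptors, which serve IL-10, IL-22, interferons and interferon lambda, differed less. All 8 listed chains were on the arrays and 6 passed the filter, with none at least 1 log2 unit from mock in all 5 clones in either direction. Their median difference was 0.06, as for all kept genes (0.06). IL10RB, the second chain of the IL-10, IL-22 and interferon lambda receptors, read 4449 to 5582 in the clones and 5081 in mock on its brighter probe. Its dimmer probe differed by -1.62 in SFRP4 and by -0.25 to -0.03 in the other clones. IL10RA read 230.0 to 310 in the clones and 275 in mock. The soluble IL-22 decoy receptor gene IL22RA2 read 195 to 332 in the clones and 196 in mock. IFNLR1, the chain specific for interferon lambda and the neighbour of IL22RA1 on chromosome 1, was above mock in 4 clones. Its differences were 0.43 for SFRP1, 0.73 for SFRP2, 1.00 for SFRP3 and 1.32 for SFRP5, and -0.23 for SFRP4. The interferon receptor genes IFNAR1, IFNAR2, IFNGR1 and IFNGR2 had mean differences between -0.30 and 0.37.

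The genes that lie beside IL24 were then followed, taking the 8 protein-coding neighbours on each side in the RefSeq gene table. All 16 were on the arrays and 10 passed the filter. FAIM3, now named FCMR and encoding a receptor for the Fc part of IgM, is the next gene after IL24. It read 566 in SFRP1, 936 in SFRP2, 2081 in SFRP3, 556 in SFRP4 and 1209 in SFRP5, against 167 in mock. FAIM3 was thus higher in all 5 clones without overlap with mock, by 1.73 to 3.63, and by at least 1.55 after quantile normalization and 1.61 with median centring.

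Of the 10 neighbours that passed the filter, FAIM3 alone lay at least 1 log2 unit above mock in all 5 clones, where 0.351% of kept genes did (27 genes with median centring in place of 42), and none lay that far below, where 0.376% did. DYRK3, a protein kinase gene 5 places before IL24, read 3496 in SFRP1, 7152 in SFRP2, 10131 in SFRP3, 5492 in SFRP4 and 11737 in SFRP5, against 2633 in mock. DYRK3 reached 1 log2 unit in 4 clones (3 with median centring), and its other probe differed by 0.56 to 0.93. C4BPB, which encodes the beta chain of the complement inhibitor C4b-binding protein, differed by 1.84 in SFRP1 and 1.87 in SFRP4 and by 0.59 to 0.72 in the other clones. Its other probe was below the floor on 4 arrays and differed by -0.54 to 0.48.

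Between IL24 and those genes the others did not share the pattern. PIGR, the gene of the polymeric immunoglobulin receptor and the next after FAIM3, was below the floor on all 6 arrays. FCAMR, the following gene and another Fc receptor, read 462 in SFRP1 and 455 in SFRP5 and 130.2 to 168 in the other clones, against 114 in mock. The kinase gene MAPKAPK2, the nearest neighbour before the interleukins, differed by -0.59 to 0.74. On their brightest probes IKBKE, RASSF5, EIF2D, PFKFB2 and YOD1 had mean differences between -0.05 and 0.37. The dimmer probes of IKBKE and RASSF5 each had a mean of -0.68. C1orf116 and C4BPA were dim. C4BPA differed by 0.41 to 1.22, with its mock reading below the floor. The median difference of the 10 kept neighbours was 0.34, against 0.06 for all kept genes.

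**Figure D3:**
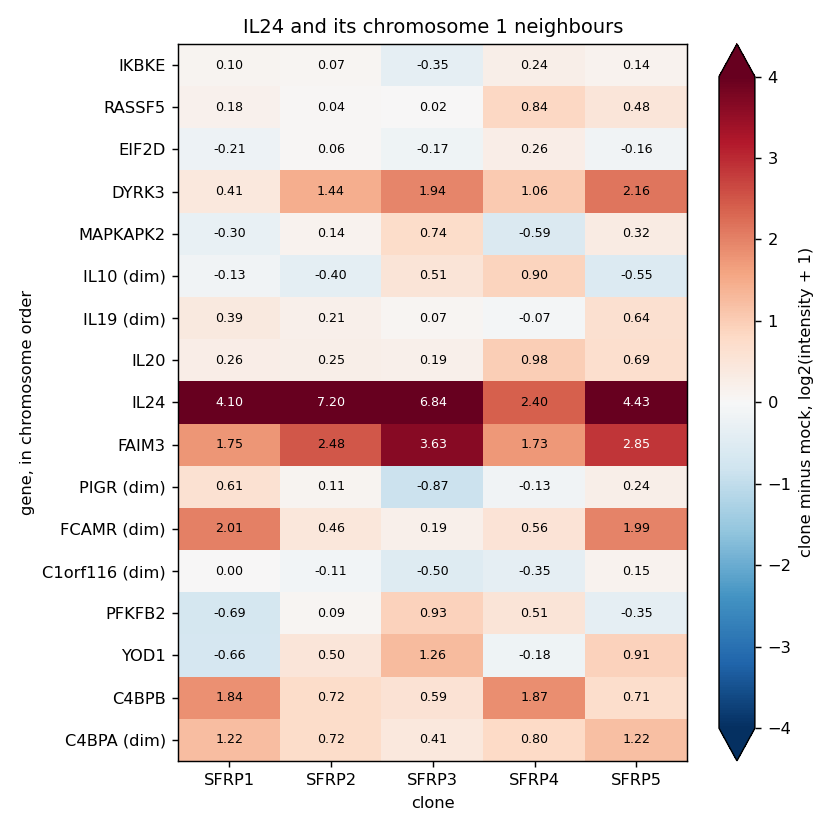
Difference of each SFRP clone from mock, in log2(intensity + 1), for IL24 and its 8 protein-coding neighbours on each side, in chromosome order from top to bottom (dim marks genes under the filter). The rows of IL24 and of FAIM3 next to it are high in all 5 columns, DYRK3 is at least 1 log2 unit high in 4 (3 with median centring), and IL10, IL19 and IL20 between them are not.

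The receptor genes lie elsewhere and their neighbours were treated likewise. MAP7, a microtubule-binding protein gene 4 places from IL20RA on chromosome 6, read 3651 in SFRP1, 2658 in SFRP2, 3091 in SFRP3, 1606 in SFRP4 and 1526 in SFRP5, against 615 in mock, a mean difference of 1.94 ± 0.57 (SD, n = 5 clones). It was the 1 gene of 11 kept neighbours of IL20RA at least 1 log2 unit from mock in all 5 clones. None of the 10 kept neighbours of IL20RB and none of the 11 of IL22RA1 was. The median differences of the neighbours were 0.12 for IL20RB, 0.09 for IL20RA and 0.17 for IL22RA1. The largest mean differences beside those already given were 0.36 for NME9 near IL20RB, 0.64 for KIAA1244 near IL20RA and 0.43 for FUCA1 near IL22RA1.

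The genes most like IL24 over the 6 arrays were sought by Pearson correlation of log2 values among the 1105 other kept genes with a range of at least 2 log2 units. MYO1D, a class I myosin gene, was first (r = 0.93). It read 2933 in SFRP1, 7237 in SFRP2, 11964 in SFRP3, 1488 in SFRP4 and 5379 in SFRP5, against 1346 in mock, so that SFRP3, SFRP2 and SFRP5 were its 3 highest arrays, as for IL24. ATP12A (r = 0.92), the gene of a proton and potassium pump, read 805 in SFRP1, 845 in SFRP2, 1097 in SFRP3, 409 in SFRP4 and 455 in SFRP5, against 195 in mock.

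SERTAD4-AS1 (r = 0.90), an antisense RNA gene, read 173 to 754 in the clones and 110.0 in mock, and LONRF2 (r = 0.90), a RING finger protein gene, read 183 to 755 in the clones and 194 in mock. The other LONRF2 probe was dim and differed by -0.37 to 0.48. The fifth gene was FAIM3 (r = 0.88), the chromosomal neighbour described above. For IL20RB the correlation with IL24 was 0.45 and for IL22RA1 it was -0.61. These 6 points share the mock array and the array scaling, and mock is the lowest or next to lowest in each of the 5 genes, so the values are descriptions of likeness only.

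**Figure D4:**
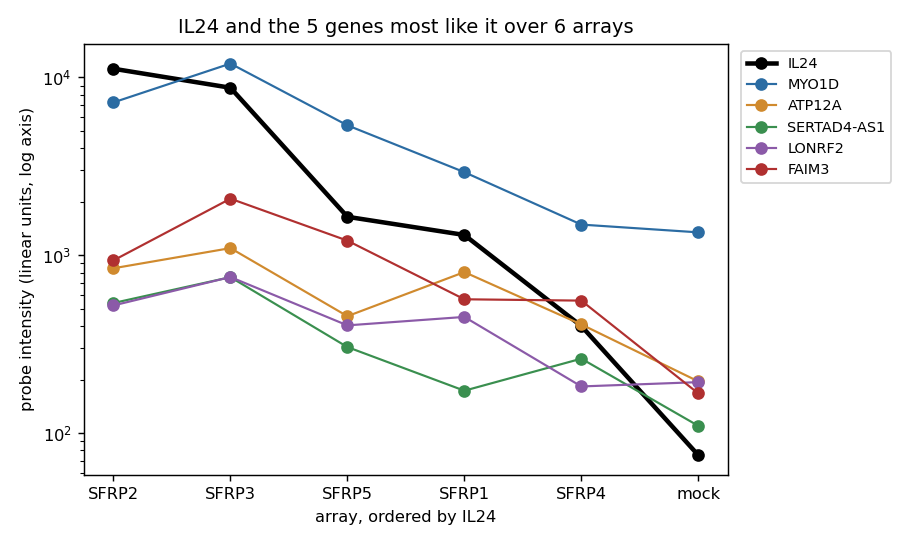
Probe intensity (linear units, log axis) of IL24 and of the 5 genes with the highest Pearson correlation to it over the 6 arrays, with arrays ordered by IL24 from high to low. IL24 covers 75.2 to 11189, a wider range than any of the 5, whose highest reading is in SFRP3 in place of SFRP2.

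JAK-STAT transducers and feedback genes, which act below these receptors, were on the arrays for 12 of 13 listed genes, and 10 passed the filter. None lay at least 1 log2 unit from mock in all 5 clones, and the median difference was 0.18. JAK1, the kinase bound by the longer receptor chains, read 15949 to 22259 in the clones and 13921 in mock, on average 0.36 ± 0.19 above (SD, n = 5 clones). STAT3, the transcription factor of IL24 receptors, read 15386 to 22033 in the clones and 14192 in mock. Both were above mock in all 5 clones and by less than 1 log2 unit in each, where 14.5% of kept genes were higher in all 5 by some amount.

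The largest difference among these genes was that of SOCS2, a feedback inhibitor of growth hormone and STAT5 signals. SOCS2 read 2387 in SFRP1, 5394 in SFRP2, 4323 in SFRP3, 1093 in SFRP4 and 6691 in SFRP5, against 1097 in mock. It was at least 1 log2 unit above mock in 4 clones and level with mock in SFRP4, the clone with the least IL24. SOCS3 is the usual feedback gene of STAT3. On the brighter of its 2 probes SOCS3 read 4927 in SFRP1, 3024 in SFRP2, 9452 in SFRP3, 8074 in SFRP4 and 7833 in SFRP5. The mock reading of that probe was 4945. SOCS1 differed by -1.18 in SFRP3, -1.08 in SFRP4 and -0.83 in SFRP1, and by 0.06 and -0.18 in SFRP2 and SFRP5.

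Of 14 listed STAT3 target genes, all on the arrays, 10 passed the filter and none was 1 log2 unit from mock the same way in all 5 clones (median difference -0.13). SERPINA3, an acute-phase protease inhibitor gene, read 1034 in SFRP1, 319 in SFRP2, 212 in SFRP3, 1942 in SFRP4 and 373 in SFRP5, against 1693 in mock. CEBPD, a transcription factor gene of the acute phase, read 69596 in SFRP1, 5646 in SFRP2, 7264 in SFRP3, 42647 in SFRP4 and 10521 in SFRP5, against 29695 in mock. Both were thus lowest in SFRP2, SFRP3 and SFRP5, the 3 clones with the most IL24. MCL1, an anti-apoptotic gene, differed by -0.28 in SFRP4 and by 0.66 to 1.71 in the other clones.

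Genes reported to respond to forced IL24, which serve endoplasmic reticulum stress, growth arrest and apoptosis, were on the arrays for 17 of 18 listed, and 15 passed the filter. Their median difference was 0.01, and none was 1 log2 unit from mock in all 5 clones. DDIT3, the transcription factor CHOP of the stress response, read 14252 in SFRP1, 56463 in SFRP2, 52602 in SFRP3, 10949 in SFRP4 and 46548 in SFRP5, against 15782 in mock. It was therefore above mock in SFRP2, SFRP3 and SFRP5 and slightly below in SFRP1 and SFRP4. PPP1R15A, the phosphatase subunit GADD34 that acts in the same response, differed by 1.61 in SFRP2 and 1.37 in SFRP5, by 0.68 in SFRP3, by 0.35 in SFRP1 and by -0.49 in SFRP4. The chaperone gene HSPA5 (BiP) read 2849 to 8913 in the clones and 4224 in mock, with SFRP5 alone at least 1 log2 unit higher. BAX, a pro-apoptotic gene, differed by -1.03 in SFRP5 up to 0.18 in SFRP1.

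AP-1 and C/EBP factors, known activators of the IL24 promoter, all passed the filter, 10 of 10, with a median difference of 0.31 and none 1 log2 unit from mock in all 5 clones. ATF3, a stress-induced factor, read 1968 in SFRP1, 9071 in SFRP2, 6358 in SFRP3, 4108 in SFRP4 and 13898 in SFRP5, against 3300 in mock. Its highest reading, and that of FOSB at 3719 against 602 in mock, was in SFRP5. FOSL1 read 15293 in SFRP2, its highest, 15219 in SFRP5 and 2543 in SFRP4, its lowest, against 6979 in mock. The part of these factors in the IL24 difference was not tested. JUND differed by -0.01 in SFRP3 up to 1.09 in SFRP1.

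Keratinocyte genes known to respond to IL-20 subfamily cytokines gave no common direction. Of 15 listed, 13 were on the arrays and 7 passed the filter. These 7 had a median difference of -0.08, and none of the 7 was 1 log2 unit from mock in all 5 clones. IL8, the gene of the neutrophil chemokine CXCL8, read 78646 in SFRP1, 8453 in SFRP2, 20413 in SFRP3, 6385 in SFRP4 and 4036 in SFRP5, against 60973 in mock. It was thus above mock in SFRP1 and at least 1 log2 unit below in the other clones. PDGFA differed by -2.20 in SFRP4 and by -0.79 to -0.17 in the others, and IVL by -0.14 to 0.80. The keratin gene KRT6A, named after its values were seen, missed the filter with 96.3 to 204.0 in the clones and 548 in mock.

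Markers of other cells that can make IL24 were read beside it. Of 7 melanocyte markers, all on the arrays, the summed intensity lay between 7297 and 9667 in the clones and was 7455 in mock. The 3 that passed the filter read 2409 to 5969 (SOX10), 1732 to 3358 (MITF) and 766 to 1119 (PMEL) over the 6 arrays. The pigment enzyme gene TYR was below the floor on all 6 arrays. Of 11 blood cell markers 9 were on the arrays, with sums between 13288 and 18971 in the clones and 14201 in mock. Of these 5 passed the filter, among them CD3D at 4037 to 6308 and CD14 at 1464 to 2225 over the 6 arrays. PTPRC (CD45) and LYZ were below the floor on all 6. The 6 basal keratinocyte markers summed to 7287 to 37080 in the clones and 21468 in mock. Most of that range came from KRT15, which read 31698 in SFRP3 and 1030.3 in SFRP4, against 15195 in mock. The 8 fibroblast markers summed to 3446 to 6507 in the clones and 3463 in mock. The part of these markers in the IL24 difference was not tested.

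The 5 clones as a set were also compared with mock by limma over all 11954 kept genes, where 5 genes (0.0418%) had an adjusted p under 0.05. They were MIS18A, TSEN54, SLFN12, CD248 and EVPL, none of them a gene of the lists above. Of the 120 list and neighbour genes tested, limma called 0, the lowest adjusted p was 1.00, and 4 had an unadjusted p under 0.05 (FAIM3, MAP7, DYRK3 and COL17A1), against 261 of all 11954 genes. Of these 4 named genes, FAIM3, MAP7 and DYRK3 were higher in the clones. COL17A1 was lower than mock in all 5, with differences of -1.33 to -0.40. The limma test takes its spread from clones that carry 5 different genes, and mock, with 1 array, has to be taken as equally variable. Without the SFRP5 clone the count was 2, without SFRP2 or without SFRP3 it was 3, and without SFRP1 it was 5, and without SFRP4 it was 6.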

How the data were processed

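Per the labels' protocols, Cy5-labelled RNA of 6 HM20 populations was hybridised, 1 colour to an array. The authors deposited linear intensity values for 31741 probes. How they subtracted background or scaled the arrays is not stated. The low values of each array were whole multiples of a step between 0.795 and 1.37 units, and 22 values on the SFRP4 array were below 0. Values below 0 were set to 0, 1 was added and log2 was taken. The platform annotation names 1 gene for 24740 probes, several for 977 and none for 6024. For genes with several probes the one with the highest mean was used. Differences are clone minus mock. The test across genes was limma 3.58.1 in R 4.3.3 (lmFit, eBayes, two-sided, Benjamini-Hochberg), checked on simulated data; tables were made with Python 3.11.15 and pandas 2.3.3.

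The genes named are the 4 members, all listed ligands and receptor chains, the neighbours of IL24 and the 5 genes most like IL24. Of each other list they include kept genes at least 1 log2 unit from mock in all 5 clones, plus up to 3 with the largest mean difference. For the marker lists and the neighbours of the receptor genes, not all of those 3 are named. STAT3, SOCS3, HSPA5, FOSL1, KRT6A, AKR1C1, ALDH1A1 and the surfactant, TYR, PTPRC and LYZ markers were added after their values were seen. Members and lists were chosen with earlier results of these data known. Alternatives covered scaling, pseudocount, floor, filter, probe choice, variance trend and leaving out each clone.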

Additional observations from a re-analysis of the deposited data

How the results depend on the processing

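Of 88 alternative values for the members and for the counts of genes, 77 stayed within the clone SD or within 1.5 times the count. A turn of direction was checked only for a mean of at least 1 log2 unit, among the members IL24 alone, whose direction held. The mean of IL20RA, counted as within the SD, changed sign from -0.18 to 0.24 under quantile normalization. For IL24 the mean difference was 4.92 under quantile normalization, 4.87 under median centring and 4.75 with a pseudocount of 16, and leaving out 1 clone gave 4.44 to 5.64. The same gave 0.28 to 0.39 for IL20RB, -0.37 to -0.06 for IL20RA and -0.41 to -0.28 for IL22RA1. Median centring lowered the median difference of all kept genes by 0.05 to 0.21. The number of genes called by limma, 5, was 2 with a mean-variance trend (cause not tested) and 2 to 6 without 1 clone. It was 0 with the stricter filter that asks the dimmest array to reach the table median (130 at an unadjusted p under 0.05). That filter tests fewer genes and leaves out MIS18A and TSEN54, which read 26.3 and 31.0 in mock, so it could not call them. With the stricter filter the genes at least 1 log2 unit from mock were 540 in SFRP1, 398 in SFRP2, 394 in SFRP3, 939 in SFRP4 and 948 in SFRP5, and without a filter 1348 in SFRP3. IL24 itself does not pass the stricter filter, and IL20RA lies under the floor throughout. No paired analysis was possible because each population has 1 array. The average over probes left the members as they were, since each has 1 probe.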
